A study of Rattus norvegicus with 12 samples.

Results

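Endothelin-1 (ET-1) was compared with its acetic acid vehicle in cultured rat cardiomyocytes, in the absence of the BET inhibitor JQ1, across all expressed genes. The comparison rests on 4 of the study's 12 libraries, picked out by their titles. The comparison and the gene lists below were chosen with earlier results of these data known. The 2 ET-1 libraries came from cells given ET-1 at 100 nM together with DMSO, and the 2 vehicle libraries from cells given acetic acid together with DMSO, both for 24 h. All 4 shared the DMSO, which was the solvent control for JQ1. The cells were primary cardiomyocytes of Sprague-Dawley rats aged 1 to 3 days, seeded at 40000 cells per square cm on a coated surface in medium that first held 7% serum. AraC, which stops dividing cells such as fibroblasts, was present at 10 µM until 24 h before treatment. The other 8 libraries of the study received phenylephrine (PE), JQ1 or both. Replicates carry only a number, and the labels do not say that they were separate cultures or animals. P-values are thus set against the spread of these libraries, and that spread may be technical.

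ET-1 is a vasoconstrictor peptide released mainly by endothelial cells. On cardiomyocytes it binds endothelin receptors that couple to the G protein Gq, which activates phospholipase C, releases calcium from internal stores and switches on protein kinase C and the ERK kinases. It is a classic inducer of hypertrophy in neonatal cultures, in which cells enlarge without dividing, add sarcomeres and raise fetal cardiac genes such as those of the natriuretic peptides and skeletal actin. The study's title asks about P-TEFb, the kinase that releases paused RNA polymerase II and is held inactive by the 7SK complex.

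The 4 libraries held 2.446 to 2.965 Gb of transcript coverage and 12869 to 13543 genes of at least 1 FPKM (fragments per kilobase of transcript, scaled to the library's total). Total RNA depleted of ribosomal RNA was sequenced, and features shorter than 400 nt took 62.81 to 68.4% of all FPKM, so the values below were rescaled by median-of-ratios factors. Cardiomyocyte markers were abundant in all 4, with 7 tested markers summing to 9448 and 11120 FPKM with ET-1 and 9430 and 12710 FPKM in vehicle. By limma 0 of the 7 was called, with or without the replicate term. An unadjusted p under 0.05 was found for 2 of them, against 4915 of the 13793 genes tested. The replicates differed in other cells. The 12 fibroblast markers summed to 893.9 and 217.8 FPKM with ET-1 and 1356 and 333.1 FPKM in vehicle, so that replicate 1 held more of them than replicate 2 in both groups, and within each replicate ET-1 held less. Macrophage markers summed to 16.97 and 7.38 FPKM with ET-1 and 24.05 and 10.01 FPKM in vehicle, with Cd163 at 0. Endothelial markers summed to 9.532 and 4.612 FPKM with ET-1 and 10.06 and 4.674 FPKM in vehicle, and Schwann cell and neuron markers to 7.81 and 6.847 FPKM with ET-1 and 8.686 and 6.644 FPKM in vehicle, with Th at 0. Of the 5, 6 and 4 tested markers of endothelial cells, macrophages and Schwann cells or neurons, the macrophage gene Lyz2 alone was called (−0.47 ± 0.10, adjusted p = 0.018, 0.75 without the replicate term). It made up 16.7% of the macrophage markers, where 9.5% of all genes fell. In such bulk samples, fewer cells of a type and less RNA per cell cannot be told apart.

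ET-1 changed nearly as many genes upward as downward, most of them by less than 2-fold. Libraries were paired by replicate number in a limma fit over all 12 libraries, with Benjamini-Hochberg adjustment over 13793 genes and a threshold of 0.05. Of these genes 1226 rose (8.89%) and 1311 fell (9.5%), together 2537 (18.4%), with 162 rises and 141 falls of at least 2-fold. An unadjusted limma p under 0.05 was held by 4915 of the 13793 genes, the background for such counts in the lists. The median difference was 0.51 among the rises and −0.488 among the falls on the log2 scale, against −0.015 over all genes tested. The replicate 1 and replicate 2 pairs, which share no library, gave differences of the same sign for 78.1% of genes and correlated at 0.49 across genes, which are not independent replicates. On the values as deposited the median of all genes was −0.106 and 29.2% of the called genes rose, against 48.3% after rescaling, so small shifts below depend on the scale.

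The counts of calls depended on the replicate number. Without it as a term, 180 genes rose (1.31%) and 216 fell (1.57%), together 396 (2.87%), all of them among the 2537. With the term and 1 library left out, 878 genes were called without ET-1 replicate 1, 634 without ET-1 replicate 2, 2393 without vehicle replicate 1 and 626 without vehicle replicate 2. Counts of list members called in these 4 fits are given below in that order. A gene is written as having risen or fallen where it passed in the fit with the replicate term. Whether the groups of a gene lie apart is a description only. Naming called genes favours groups that lie apart, and the share over all genes is not given. Values are rescaled FPKM of replicate 1 and then replicate 2 of each group, and differences are ET-1 minus vehicle in log2(FPKM + 0.5) ± SE, a scale that understates changes of low genes. Adjusted p-values are limma's, and a range after one gives its lowest and highest value in the 4 fits with a library left out.

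**Figure D1:**
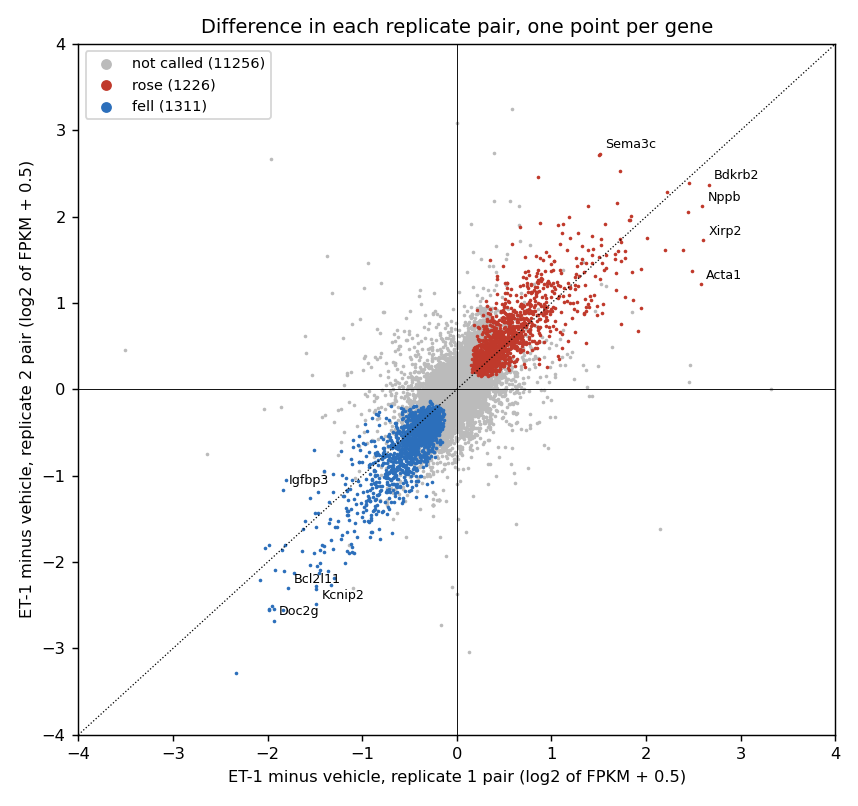
ET-1 minus vehicle in log2(rescaled FPKM + 0.5) for each of 13793 genes, with the replicate 1 pair on the x axis and the replicate 2 pair on the y axis, red for the 1226 genes that rose, blue for the 1311 that fell and grey for the rest, and a dotted line where both pairs are equal; points beyond the axes are not drawn. The called genes lie in the lower left and upper right of the plot, and Nppb, Xirp2 and Acta1 lie below the dotted line because their replicate 1 difference was the larger.

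The largest rise was that of Bdkrb2, the bradykinin B2 receptor (ENSRNOG00000047300, chr6:129399468-129429676 on rn6), which stood at 4.93 and 8.79 FPKM with ET-1 and 0.359 and 1.297 FPKM in vehicle. It differed by 2.52 ± 0.25 (adjusted p = 0.0015, 0.041 without the replicate term). The sodium channel subunit gene Scn3b stood at 8.65 and 12.2 FPKM with ET-1 and 1.244 and 3.65 FPKM in vehicle (difference 2.003 ± 0.19, adjusted p = 0.0014). Rnd1, a small GTPase that loosens actin fibres, stood at 57.6 and 80.7 FPKM with ET-1 and 9.90 and 31.0 FPKM in vehicle (1.92 ± 0.23, adjusted p = 0.0025). In all 3 genes both ET-1 libraries lay above both vehicle libraries, and the replicate 1 pair differed more than the replicate 2 pair. Sema3c, a secreted guidance protein of heart development, stood at 39.8 and 60.5 FPKM with ET-1 and 13.6 and 8.70 FPKM in vehicle (2.12 ± 0.34, adjusted p = 0.0070), with vehicle replicate 2 the lowest library. Wfdc1, a small secreted protein, stood at 5.78 and 7.74 FPKM with ET-1 and 1.27 and 1.62 FPKM in vehicle (1.90 ± 0.20, adjusted p = 0.0018), and its groups lay far apart. Phf24 and Pxdc1, a PHD finger and a PX domain protein, rose by 2.25 ± 0.09 and 1.92 ± 0.23. The muscle genes Nppb, Fhl1, Xirp2 and Acta1 complete the list of 12 largest rises together with a record of Gnas at 3.36 and 7.95 FPKM with ET-1 and 0.692 and 1.396 FPKM in vehicle (1.93 ± 0.33, adjusted p = 0.0090). That record overlaps another of the same symbol (ENSRNOG00000047374), which held 151 FPKM in ET-1 replicate 1 and differed by 0.00 ± 0.11, so the split of reads between them is uncertain.

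Of the 12 largest falls within the limits given below, that of Doc2g, a C2 domain protein (ENSRNOG00000018029, chr1:219250265-219253788 on rn6), was the strongest, at 7.59 and 4.85 FPKM with ET-1 and 30.5 and 33.7 FPKM in vehicle (−2.31 ± 0.28, adjusted p = 0.0027). Mb, the gene of the oxygen-binding protein myoglobin (ENSRNOG00000004583, chr7:118101634-118108864 on rn6), stood at 248 and 349.6 FPKM with ET-1 and 979 and 2039 FPKM in vehicle (−2.26 ± 0.33, adjusted p = 0.0051, 0.059 without the replicate term). Both ET-1 libraries lay far below both vehicle libraries, although vehicle replicate 2 held more myoglobin RNA than vehicle replicate 1. Gamt, the enzyme of the last step of creatine synthesis, stood at 6.94 and 5.42 FPKM with ET-1 and 27.9 and 34.0 FPKM in vehicle (−2.24 ± 0.24, adjusted p = 0.0019). Gpr22, an orphan G protein-coupled receptor of heart and brain, stood at 4.35 and 4.36 FPKM with ET-1 and 16.7 and 20.3 FPKM in vehicle (−1.96 ± 0.20, adjusted p = 0.0016). Ntn1, the secreted guidance protein netrin-1, stood at 10.5 and 6.16 FPKM with ET-1 and 30.5 and 32.5 FPKM in vehicle (−1.90 ± 0.23, adjusted p = 0.0027). In these 3 genes the groups lay far apart, with replicates close together except for the ET-1 libraries of Ntn1. Mest, an imprinted gene active in fetal tissue, stood at 23.6 and 15.2 FPKM with ET-1 and 66.7 and 64.3 FPKM in vehicle (−1.76 ± 0.21, adjusted p = 0.0025). The remaining falls were Klhl33 (−2.23 ± 0.30), Bcl2l11 (−2.04 ± 0.22), Kcnip2 (−1.99 ± 0.34), Irf7 (−1.92 ± 0.25), Tmem44 (−1.79 ± 0.16) and Selenbp1 (−1.77 ± 0.28).

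These 24 genes were named for their size among called genes, so the sizes are a description. The limits were a symbol, the same sign in both pairs, a transcript of at least 400 nt and a mean of at least 5 FPKM in the higher group. Called genes outside these limits fell by up to 2.81. Of the 24, 13 were also called without the replicate term and 19 in each of the 4 fits with a library left out. Sema3c (0.010 to 0.064) and Gnas (0.020 to 0.068) missed the threshold without ET-1 replicate 2, Acta1 (0.018 to 0.078) without ET-1 replicate 1, Kcnip2 (0.0062 to 0.064) without either ET-1 library, and Selenbp1 (0.015 to 0.060) without ET-1 replicate 2 or vehicle replicate 2, where the values in parentheses are the range of adjusted p over the 4 fits.

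**Figure D2:**
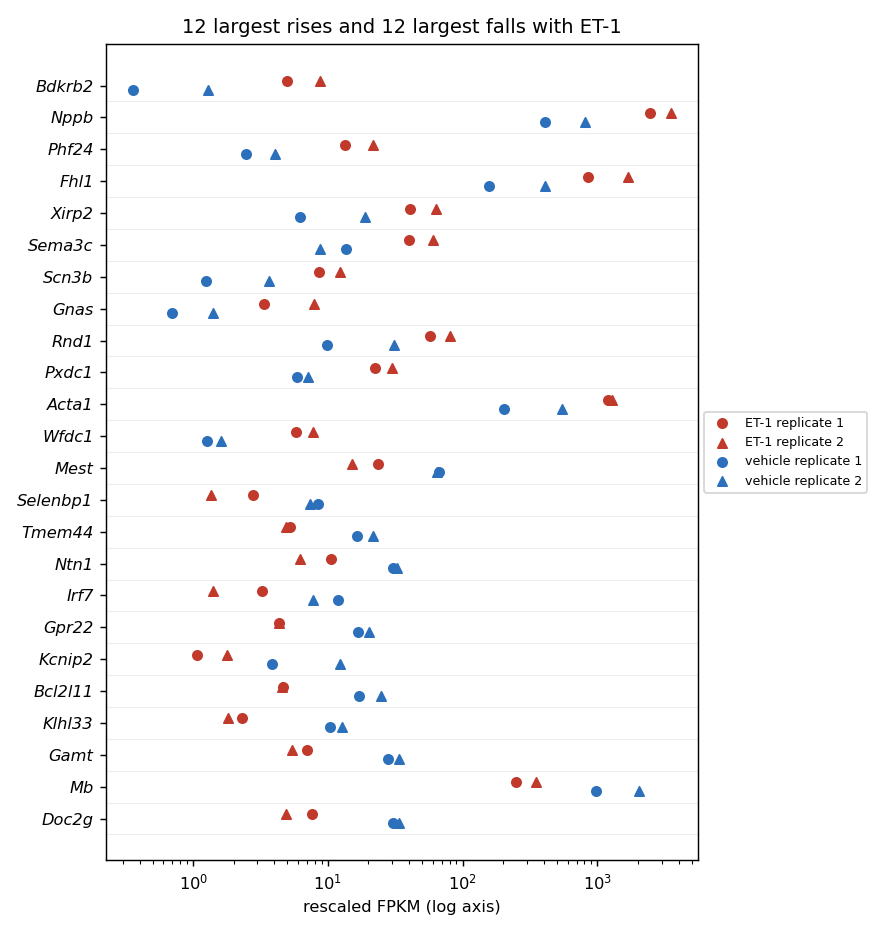
Rescaled FPKM (log axis) of the 12 largest rises, from the top, and the 12 largest falls, with ET-1 in red above vehicle in blue for each gene, circles for replicate 1 and triangles for replicate 2. The ET-1 points of a gene lie to one side of both vehicle points in all 24 genes, which the choice by size and by equal sign in both pairs favours.

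The genes of the endothelin system itself were not called. Edn1, which encodes the precursor of ET-1, stood at 3.83 and 3.33 FPKM with ET-1 and 3.62 and 1.61 FPKM in vehicle (0.46 ± 0.21, adjusted p = 0.16), so that the ET-1 libraries were alike and vehicle replicate 2 was low. Ednra, the ETA receptor, stood at 20.01 and 27.9 FPKM with ET-1 and 36.7 and 21.4 FPKM in vehicle (−0.24 ± 0.35, adjusted p = 0.65), with overlapping groups and a sign that turned in some fits. Ednrb, the ETB receptor, was near 1 FPKM in all 4 libraries, at 0.867 and 0.593 FPKM with ET-1 and 1.14 and 0.621 FPKM in vehicle. Ece1, which cuts the ET-1 precursor, stood at 8.74 and 4.71 FPKM with ET-1 and 11.8 and 8.73 FPKM in vehicle (−0.62 ± 0.22, adjusted p = 0.083). Of the 4 tested members 0 were called with or without the replicate term. An unadjusted p under 0.05 was found for 1 of them, against 4915 of all 13793 genes.

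Receptors for other ligands moved in both directions. Of 12 tested receptors for catecholamines, angiotensin, kinins, sphingosine phosphate and proteases, 3 rose and 4 fell (25% and 33.3%, against 8.89% and 9.5% of all genes; median −0.21). F2rl1, the protease-activated receptor PAR2, stood at 2.74 and 3.75 FPKM with ET-1 and 0.206 and 0.884 FPKM in vehicle (1.91 ± 0.17, adjusted p = 0.0012). S1pr1, a sphingosine phosphate receptor, stood at 22.4 and 51.1 FPKM with ET-1 and 8.99 and 25.1 FPKM in vehicle (1.14 ± 0.10, adjusted p = 0.0012). The S1pr1 groups overlapped, because replicate 2 was higher than replicate 1 in both, while ET-1 was above vehicle within each replicate. Adra1b, the alpha-1B receptor through which PE also acts, fell to 4.75 and 3.86 FPKM with ET-1, against 10.7 and 13.1 FPKM in vehicle (−1.37 ± 0.18, adjusted p = 0.0038). Adrb1, the main cardiac beta receptor, stood at 5.72 and 6.59 FPKM with ET-1 and 8.598 and 11.3 FPKM in vehicle (−0.64 ± 0.16, adjusted p = 0.032, range with a library left out 0.032 to 0.21). Agtr1a, the angiotensin II receptor, fell by 0.76 ± 0.12 and Lpar1 by 0.63 ± 0.17. Adra1a, the alpha-1A receptor, differed by 0.56 ± 0.17 and was not called (adjusted p = 0.054). Bdkrb2, F2rl1 and Adra1b were also called without the replicate term (adjusted p = 0.090 to 0.62 for the other 4), and 5, 5, 7 and 5 members were called with a library left out.

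Most genes downstream of Gq were not called, and the shares called lay near those of all genes. Of 22 tested genes of G proteins, phospholipases, kinases and TRPC channels, 3 rose and 2 fell (13.6% and 9.09%, against 8.89% and 9.5% of all genes; median −0.03). The calcium/calmodulin kinase genes split: Camk2b stood at 1.65 and 2.85 FPKM with ET-1 and 0.652 and 1.10 FPKM in vehicle (0.98 ± 0.11, adjusted p = 0.0021), and Camk2a at 3.41 and 3.26 FPKM with ET-1 and 6.46 and 8.29 FPKM in vehicle (−1.03 ± 0.14, adjusted p = 0.0044). Both pairs of groups lay apart. Dgkz, a kinase that removes diacylglycerol, fell by 0.56 ± 0.10 and Dgka, another, rose by 0.23 ± 0.06. Camk2a and Dgkz were among the 3 called without the replicate term, and 4, 2, 5 and 3 members with a library left out. Of 9 RGS genes, which switch G proteins off, Rgs6 alone was called (−0.49 ± 0.13, adjusted p = 0.035, range 0.020 to 0.23). Of 9 calcineurin and NFAT genes only Myoz2 was called, as a rise, and Rcan1, a calcineurin target and inhibitor, differed by 0.64 ± 0.26 (adjusted p = 0.12). In the RGS list 11.1% fell, against 9.5% of all genes. In the calcineurin list 11.1% rose, against 8.89% of all genes.

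Most hypertrophy and fetal cardiac genes rose. Of 19 tested members 11 rose and 1 fell, with a median of 0.71, beside a median of −0.015 over all genes tested (57.9% and 5.26%, against 8.89% and 9.5% of all genes). Nppb, which encodes B-type natriuretic peptide (ENSRNOG00000008141, chr5:164796185-164797531 on rn6), stood at 2473 and 3529.5 FPKM with ET-1 and 409.8 and 811 FPKM in vehicle (2.36 ± 0.19, adjusted p = 0.00091, 0.064 without the replicate term). Nppa, which encodes atrial natriuretic peptide (ENSRNOG00000008176, chr5:164808323-164809705 on rn6), stood at 8388 and 14031 FPKM with ET-1 and 2622 and 4719.7 FPKM in vehicle (1.62 ± 0.14, adjusted p = 0.0011, 0.14 without the term). It took 1.8 and 2.81% of the FPKM of genes of at least 400 nt with ET-1, against 0.619 and 1.04% in vehicle. Both peptides were lowest in vehicle replicate 1 and highest in ET-1 replicate 2, and the groups did not overlap. Acta1, skeletal actin, stood at 1203 and 1276 FPKM with ET-1 and 201 and 547 FPKM in vehicle (1.90 ± 0.34, adjusted p = 0.011), where the ET-1 libraries were alike and the vehicle libraries differed. Actins are near-identical copies, so reads may be shared between them.

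Stress and structural proteins rose beside them. Ankrd1, a titin-bound stress protein, stood at 3867 and 5338 FPKM with ET-1 and 1128 and 1863 FPKM in vehicle (1.65 ± 0.13, adjusted p = 0.00090). Fhl1, a LIM protein of the sarcomere, stood at 851 and 1697 FPKM with ET-1 and 156 and 409.7 FPKM in vehicle (2.25 ± 0.20, adjusted p = 0.0012). Xirp2, an actin-binding protein of cell junctions, stood at 40.4 and 63.6 FPKM with ET-1 and 6.23 and 18.8 FPKM in vehicle (2.17 ± 0.31, adjusted p = 0.0050). In all 3, replicate 2 was above replicate 1 in both groups and the groups lay apart. The atrial light chain Myl4 (1.07 ± 0.11), cardiac actin Actc1 (1.02 ± 0.19), desmin (0.71 ± 0.10) and Xirp1 (0.68 ± 0.10) also rose. The myosin heavy chains were not called: Myh7 stood at 1823 and 2322 FPKM with ET-1 and 1409 and 1895 FPKM in vehicle (0.33 ± 0.15, adjusted p = 0.16) and Myh6 at 600.3 and 831 FPKM with ET-1 and 535 and 803 FPKM in vehicle (0.11 ± 0.19, adjusted p = 0.72), both with overlapping groups. Hopx, a homeodomain cofactor, fell by 1.07 ± 0.24 (adjusted p = 0.023, range with a library left out 0.048 to 0.14). Timp1 was the 1 member also called without the replicate term (adjusted p = 0.063 to 0.38 for the other 11), and 9, 10, 12 and 11 members were called with a library left out. Of 5 genes that process or receive the peptides, Npr3, the clearance receptor, fell by 0.64 ± 0.16 (adjusted p = 0.030, 0.60 without the term).

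**Figure D3:**
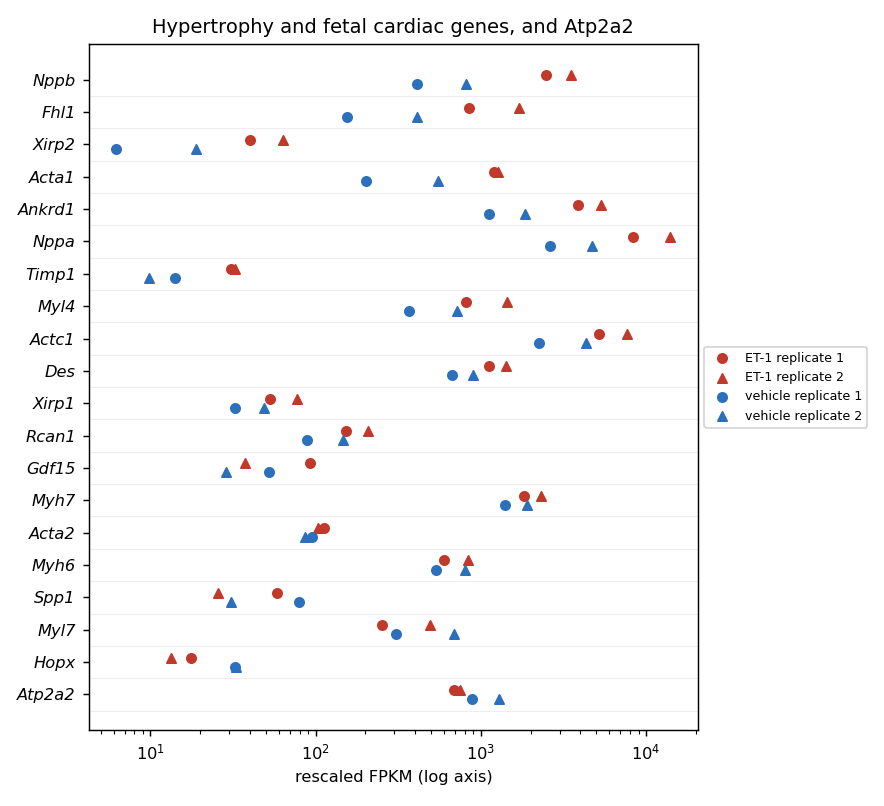
Rescaled FPKM (log axis) of the 19 tested hypertrophy and fetal cardiac genes, ordered by their difference, and of Atp2a2, with ET-1 in red above vehicle in blue, circles for replicate 1 and triangles for replicate 2. The upper genes, from Nppb to Xirp1, have both ET-1 points to the right of both vehicle points, whereas Myh7 and Myh6 overlap.

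Promoters of 3 rising genes are shown because the M-CAT box, the binding motif of TEAD factors, and the CArG box, that of SRF, are known elements of muscle gene promoters. Sequences are the 250 bases before the RefSeq start of each gene on GRCr8, a later build than that of the files, and capitals mark M-CAT (CATTCC, or GGAATG on the other strand) and the CArG box.
Nppb, chr5:163699758-163700007, plus strand: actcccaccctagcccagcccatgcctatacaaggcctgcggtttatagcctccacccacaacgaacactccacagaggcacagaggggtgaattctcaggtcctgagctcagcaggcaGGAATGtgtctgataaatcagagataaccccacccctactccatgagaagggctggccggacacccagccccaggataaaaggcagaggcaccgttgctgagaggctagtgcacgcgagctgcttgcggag
Acta1, chr19:68784195-68784444, minus strand: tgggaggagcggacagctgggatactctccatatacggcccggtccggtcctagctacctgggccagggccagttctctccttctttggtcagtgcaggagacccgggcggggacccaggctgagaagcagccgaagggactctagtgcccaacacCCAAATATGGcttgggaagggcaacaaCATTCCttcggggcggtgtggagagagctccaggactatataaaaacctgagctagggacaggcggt
Ctgf (Ccn2 in RefSeq), chr1:22624615-22624864, minus strand: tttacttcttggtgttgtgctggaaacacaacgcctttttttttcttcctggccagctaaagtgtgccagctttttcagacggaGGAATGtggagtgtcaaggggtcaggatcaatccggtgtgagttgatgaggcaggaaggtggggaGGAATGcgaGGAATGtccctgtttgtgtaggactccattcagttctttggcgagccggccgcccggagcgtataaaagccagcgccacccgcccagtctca
Counted from the start, the M-CAT box began at −131 in Nppb, at −67 in Acta1 and at −166, −101 and −92 in Ctgf, and Acta1 held a CArG box at −94. An M-CAT box on either strand was found in 12.9% of 27457 rat genes with a promoter entry, in 5 of 18 hypertrophy genes and in 9 of 20 SRF and YAP target genes. Among hypertrophy genes these were 3 of 10 that rose and 2 of 7 not called, and among SRF and YAP targets 7 of 12 that rose and 2 of 6 not called. A CArG box was found in 1.62% of all promoters, in 2 of the 18 and in 4 of the 20. These were 2 of the 10 hypertrophy genes that rose and 0 of the 7 not called, and 1 of the 12 targets that rose and 2 of the 6 not called. A match is a run of letters and not a measured binding site.

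Some sarcomere genes rose and most were not called. Of 28 tested members 7 rose and 2 fell, with a median of 0.16 (25% and 7.14%, against 8.89% and 9.5% of all genes). Csrp3, the muscle LIM protein of the Z-disc, stood at 1204 and 2068 FPKM with ET-1 and 422 and 852 FPKM in vehicle (1.39 ± 0.20, adjusted p = 0.0052). Pdlim5, a Z-disc scaffold, stood at 253 and 308 FPKM with ET-1 and 149 and 178 FPKM in vehicle (0.77 ± 0.09, adjusted p = 0.0021). Troponin C, Tnnc1, was among the most abundant called genes, at 4749 and 6802 FPKM with ET-1 and 2758 and 3842 FPKM in vehicle (0.80 ± 0.13, adjusted p = 0.0064). These groups did not overlap. Myom3, an M-band protein, fell to 0.787 and 0.302 FPKM with ET-1, against 4.92 and 3.21 FPKM in vehicle (−2.14 ± 0.21, adjusted p = 0.0015). Trim63, the ubiquitin ligase MuRF1 that breaks down sarcomere proteins, fell by 0.67 ± 0.12. Tnnt2 (−0.10), Tnni3 (−0.09), Mybpc3 (−0.14) and Myl2 (0.37) were not called. Myom3 and Pdlim5 were also called without the replicate term, and 4, 3, 6 and 6 members with a library left out. Tnnc1 was lost without either ET-1 library (range 0.017 to 0.054), and Tpm1, at 4656 and 6058 FPKM with ET-1 and 2797 and 4195 FPKM in vehicle, in each of the 4 fits (0.073 to 0.13).

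Several genes that feed back on the ERK kinases rose. Of 18 members 9 rose and 1 fell (50% and 5.56%, against 8.89% and 9.5% of all genes; median 0.58). Dusp4, a nuclear MAP kinase phosphatase, stood at 20.3 and 15.1 FPKM with ET-1 and 7.21 and 4.03 FPKM in vehicle (1.60 ± 0.20, adjusted p = 0.0029). Etv4, a Pea3-family ETS factor, stood at 11.4 and 8.40 FPKM with ET-1 and 3.63 and 2.29 FPKM in vehicle (1.60 ± 0.15, adjusted p = 0.0014). Spry2, an inhibitor of receptor tyrosine kinase signalling, stood at 28.7 and 34.0 FPKM with ET-1 and 16.6 and 16.9 FPKM in vehicle (0.88 ± 0.13, adjusted p = 0.0047, 0.022 without the replicate term). All 3 had both ET-1 libraries above both vehicle libraries. Dusp8 (1.16 ± 0.17), Phlda1 (0.96 ± 0.22), Dusp6 (0.86 ± 0.15), Dusp1 (0.70 ± 0.15), Spry1 (0.60 ± 0.17) and Spry4 (0.56 ± 0.16) also rose, whereas Etv1 fell by 0.72 ± 0.18. Spry2 alone was called without the replicate term (adjusted p = 0.054 to 0.44 for the other 9), and 7, 6, 7 and 4 members were called with a library left out.

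Immediate early genes, which answer stimuli within minutes, were still partly raised. Of 23 members 9 rose and 0 fell (39.1% and 0%, against 8.89% and 9.5% of all genes; median 0.34). The small Maf factors Mafk, at 76.7 and 99.7 FPKM with ET-1 and 33.7 and 42.1 FPKM in vehicle (1.21 ± 0.11, adjusted p = 0.0013), and Maff, at 11.2 and 9.81 FPKM with ET-1 and 5.36 and 3.49 FPKM in vehicle (1.18 ± 0.18, adjusted p = 0.0055), led them. Ier3, a stress survival protein, stood at 74.2 and 92.7 FPKM with ET-1 and 38.6 and 47.2 FPKM in vehicle (0.95 ± 0.09, adjusted p = 0.0013). The groups of these 3 did not overlap. Fos, an AP-1 subunit, stood at 5.38 and 5.20 FPKM with ET-1 and 2.71 and 3.96 FPKM in vehicle (0.61 ± 0.14, adjusted p = 0.025), and Jun differed by 0.46 ± 0.09 (adjusted p = 0.012). Egr1 (−0.13), Nr4a1 (−0.21), Fosl2 (−0.23) and Myc (0.09, at 2.37 and 2.76 FPKM with ET-1 and 2.38 and 2.35 FPKM in vehicle) were not called. Without the replicate term Maff alone was called, and 4, 9, 7 and 5 members with a library left out, Fos being lost in 3 of the 4 fits (range 0.030 to 0.13).

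Targets of SRF and YAP, which read actin assembly and tension, rose more often than they fell. Of 25 members 12 rose and 2 fell (48% and 8%, against 8.89% and 9.5% of all genes; median 0.30). Cnn1, the actin-binding protein calponin, stood at 97.3 and 145 FPKM with ET-1 and 29.6 and 47.3 FPKM in vehicle (1.65 ± 0.17, adjusted p = 0.0018). Ctgf, a matrix-associated signalling protein whose promoter is printed above, stood at 360.1 and 559 FPKM with ET-1 and 176 and 199.6 FPKM in vehicle (1.26 ± 0.23, adjusted p = 0.012). Ajuba, a LIM protein that restrains the Hippo kinases, stood at 29.3 and 35.1 FPKM with ET-1 and 18.6 and 22.2 FPKM in vehicle (0.65 ± 0.07, adjusted p = 0.0019). Each had both ET-1 libraries above both vehicle libraries. Cyr61 (1.04 ± 0.25), Tpm2 (0.69 ± 0.13) and Zyx (0.66 ± 0.12) rose as well, while Actg2 fell by 0.44 ± 0.07 and Srf (0.09), Yap1 (−0.12), Tead1 (−0.19) and Actb (−0.09) were not called. None of the 14 was called without the replicate term (adjusted p = 0.052 to 0.84), and only 3, 4, 12 and 2 members with a library left out; Ctgf, for one, ranged over 0.023 to 0.090. Cnn1 is also a smooth muscle marker, and the 10 markers of those cells summed to 888.2 and 789.2 FPKM with ET-1 and 747.3 and 449.9 FPKM in vehicle. Among the 9 tested markers Cnn1 and Cspg4 (1.06 ± 0.15) rose, and Notch3 (−0.53 ± 0.11) and Smtn (−0.74 ± 0.15) fell. These were 22.2% each, against 8.89% and 9.5% of all genes. Myh11, the defining myosin, differed by −0.31 ± 0.10 (adjusted p = 0.062). The part of smooth muscle cells in the result was not tested.

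Integrin genes, whose products anchor cells to matrix, rose in 6 of 14 cases and fell in 0 (42.9% and 0%, against 8.89% and 9.5% of all genes; median 0.37). Itga7, the laminin receptor of muscle, stood at 62.6 and 67.2 FPKM with ET-1 and 32.3 and 33.2 FPKM in vehicle (0.98 ± 0.10, adjusted p = 0.0016). Itgb1, its partner, stood at 546 and 632 FPKM with ET-1 and 393 and 340.4 FPKM in vehicle (0.68 ± 0.13, adjusted p = 0.013), and Itga6, another laminin receptor, at 24.7 and 32.7 FPKM with ET-1 and 14.4 and 14.7 FPKM in vehicle (0.94 ± 0.15, adjusted p = 0.0064). These 3 groups lay apart, and these 3 genes were the ones called without the replicate term. With a library left out 3, 1, 3 and 1 members were called. At the intercalated disc Dsc2 (0.61 ± 0.13), Ctnna1 (0.51 ± 0.11) and Vcl (0.30 ± 0.08) rose among 13 genes and none fell (23.1% and 0%, against 8.89% and 9.5% of all genes). The connexin genes Gja1 (−0.94 ± 0.30, adjusted p = 0.067) and Gja5 (−1.69 ± 0.50, adjusted p = 0.052) differed by more but were not called. Without the replicate term no disc gene was called, and 0, 0, 2 and 0 with a library left out.

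The enzymes of sterol synthesis were all higher with ET-1, at 25 of 25 positive differences with a median of 0.75 that was the highest of all lists, and 25 were positive on the values as deposited too. Of these 12 rose and 0 fell (48% and 0%, against 8.89% and 9.5% of all genes). All 25 had an unadjusted p under 0.05, against 4915 of all 13793 genes. Mvd, which makes isopentenyl diphosphate from mevalonate diphosphate, stood at 30.9 and 25.9 FPKM with ET-1 and 15.1 and 13.6 FPKM in vehicle (0.96 ± 0.06, adjusted p = 0.00090). Hsd17b7, which acts late in cholesterol synthesis, stood at 4.70 and 4.53 FPKM with ET-1 and 2.52 and 2.06 FPKM in vehicle (0.88 ± 0.12, adjusted p = 0.0043). Replicates lay close together in both, with ET-1 above vehicle, and both were among the 3 called without the replicate term. Fdps, which makes farnesyl diphosphate, differed most, at 571 and 448 FPKM with ET-1 and 210.2 and 145 FPKM in vehicle (1.53 ± 0.43, adjusted p = 0.045), but had a wide error and was lost in each fit with a library left out (0.083 to 0.23). Idi1 (1.39 ± 0.35), Cyp51 (0.97 ± 0.25) and Sqle (0.90 ± 0.24) were lost likewise, and 6, 3, 6 and 5 members were called in those fits.

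Promoters of 3 sterol genes are shown because SREBP factors, which drive these genes, act together with NF-Y, the factor of the CCAAT box. The sequences cover the 250 bases before the RefSeq start on GRCr8, with capitals for the CCAAT box, which reads ATTGG on the other strand.
Mvd, chr19:67414975-67415224, minus strand: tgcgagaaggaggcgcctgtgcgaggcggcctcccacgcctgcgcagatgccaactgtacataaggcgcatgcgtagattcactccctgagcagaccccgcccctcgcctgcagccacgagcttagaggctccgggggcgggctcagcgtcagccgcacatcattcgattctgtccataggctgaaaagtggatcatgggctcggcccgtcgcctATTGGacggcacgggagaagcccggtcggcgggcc
Hsd17b7, chr13:84722755-84723004, minus strand: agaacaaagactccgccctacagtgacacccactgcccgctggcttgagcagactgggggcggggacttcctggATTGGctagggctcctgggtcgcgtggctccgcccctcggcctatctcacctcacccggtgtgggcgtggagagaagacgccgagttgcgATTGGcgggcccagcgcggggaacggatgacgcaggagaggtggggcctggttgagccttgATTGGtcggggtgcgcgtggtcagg
Idi1, chr17:66547525-66547774, minus strand: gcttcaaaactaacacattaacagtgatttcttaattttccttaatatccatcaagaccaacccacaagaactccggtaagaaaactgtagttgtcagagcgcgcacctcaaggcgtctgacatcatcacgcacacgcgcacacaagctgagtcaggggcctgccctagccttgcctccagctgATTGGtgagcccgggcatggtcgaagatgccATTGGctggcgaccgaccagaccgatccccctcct
The box began at −35 in Mvd, at −176, −86 and −25 in Hsd17b7 and at −66 and −35 in Idi1. It was found on either strand in 14 of the 18 tested sterol genes with a promoter (77.8%) and in 36.1% of all 27457 genes. The share was 6 of 8 among sterol genes that rose and 8 of 10 among those not called. A sterol element, TCACNCCAC, was found in 0 of the 18 and in 1.09% of all genes, which says only that these letters are not in these windows.

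Fatty acid synthesis leaned the same way (median 0.49), although 2 of 14 members rose and 1 fell (14.3% and 7.14%, against 8.89% and 9.5% of all genes). The elongases Elovl5, at 48.8 and 43.0 FPKM with ET-1 and 29.4 and 25.1 FPKM in vehicle (0.74 ± 0.06, adjusted p = 0.00090), and Elovl6, at 8.11 and 7.67 FPKM with ET-1 and 4.78 and 3.66 FPKM in vehicle (0.84 ± 0.11, adjusted p = 0.0033), rose in every fit with a library left out. Fasn (0.73 ± 0.30, adjusted p = 0.12) and Scd (0.84 ± 0.49, adjusted p = 0.25) were not called. Lpin1, a lipin that makes diacylglycerol, fell by 0.83 ± 0.20, with a range of adjusted p of 0.015 to 0.18. Members called with a library left out numbered 2, 2, 3 and 2.

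Fatty acid oxidation, the main fuel pathway of the mature heart, held falls and no rise. Of 36 tested members 12 fell and 0 rose, with a median of −0.34 (33.3% and 0%, against 9.5% and 8.89% of all genes). Ech1, an enzyme of unsaturated fatty acid breakdown, stood at 68.6 and 44.8 FPKM with ET-1 and 149 and 166 FPKM in vehicle (−1.49 ± 0.30, adjusted p = 0.014). Hadh, which acts on medium and short chains, stood at 42.3 and 29.4 FPKM with ET-1 and 76.4 and 75.3 FPKM in vehicle (−1.09 ± 0.21, adjusted p = 0.013). Acaa2, the thiolase of the last step, stood at 76.6 and 44.3 FPKM with ET-1 and 127 and 115 FPKM in vehicle (−1.04 ± 0.22, adjusted p = 0.016). In each, vehicle replicates were alike and ET-1 replicate 2 was the lowest library. Plin5, a lipid droplet protein, stood at 0.768 and 0.577 FPKM with ET-1 and 2.32 and 2.37 FPKM in vehicle (−1.28 ± 0.21, adjusted p = 0.0075) and was the 1 member called without the replicate term (adjusted p = 0.052 to 0.40 for the other 11). Acsl1 (−0.86 ± 0.19), Slc27a1 (−0.80 ± 0.21) and Cpt1a (−0.68 ± 0.15) fell too, and the muscle form Cpt1b (−0.59 ± 0.22, adjusted p = 0.098) was not called. The calls were lost without ET-1 replicate 2 or vehicle replicate 2, and mostly lost without ET-1 replicate 1. Members called with a library left out numbered 4, 0, 14 and 0. Calls over all genes were also fewer without each of these libraries. However, 634 genes were still called without ET-1 replicate 2 and 626 without vehicle replicate 2, where this list held 0. Both replicate pairs were negative for each of the 12 genes, and the replicate 1 pair differed by less.

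**Figure D4:**
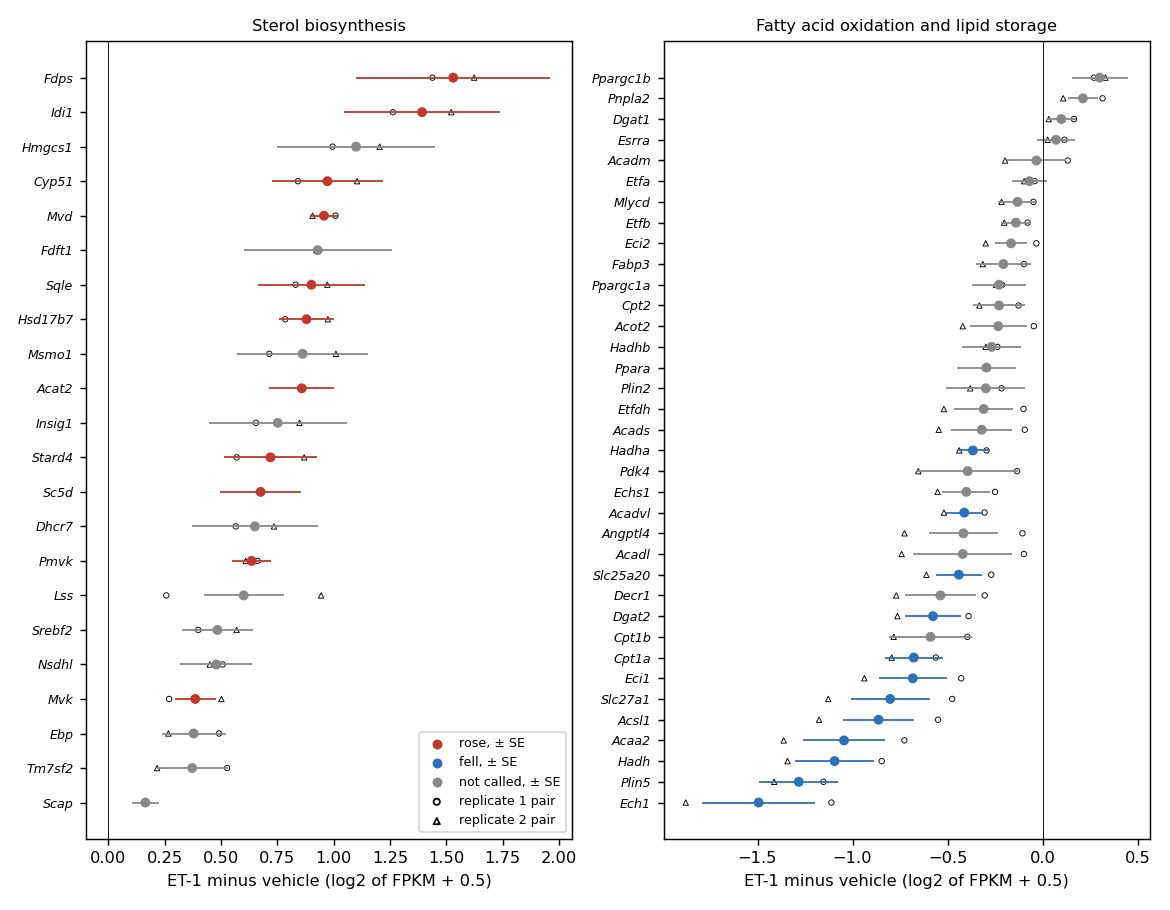
ET-1 minus vehicle in log2(rescaled FPKM + 0.5) for 22 of the 25 tested sterol synthesis genes on the left and the 36 tested fatty acid oxidation and lipid storage genes on the right, as filled points ± SE of the fit with the difference of each replicate pair as open symbols, red where the gene rose, blue where it fell and grey where it was not called. All sterol points lie right of 0, and in the falling oxidation genes the replicate 2 pair lies left of the replicate 1 pair.

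Creatine metabolism, which buffers ATP in muscle, split between its enzymes. Gatm, the first enzyme of creatine synthesis, stood at 21.5 and 22.0 FPKM with ET-1 and 10.2 and 12.5 FPKM in vehicle (0.92 ± 0.13, adjusted p = 0.0051), whereas Gamt, the second, was among the largest falls. Both were called in every fit with a library left out and without the replicate term. Ckm, the muscle creatine kinase, stood at 226 and 187 FPKM with ET-1 and 399.7 and 577 FPKM in vehicle (−1.22 ± 0.33, adjusted p = 0.039, range 0.031 to 0.24), and Slc6a8, the creatine transporter, fell by 0.54 ± 0.13. The brain form Ckb differed by 0.41 ± 0.20 and was not called. In all 1 of 7 rose and 3 fell (14.3% and 42.9%, against 8.89% and 9.5% of all genes), with 2, 2, 4 and 2 called with a library left out.

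Of 27 genes of glycolysis and of glucose and lactate transport 5 rose and 3 fell (18.5% and 11.1%, against 8.89% and 9.5% of all genes; median −0.02). Slc16a3, a lactate exporter, stood at 37.5 and 43.1 FPKM with ET-1 and 14.3 and 20.6 FPKM in vehicle (1.20 ± 0.21, adjusted p = 0.0096), and Pfkp, the platelet form of phosphofructokinase, at 216 and 296 FPKM with ET-1 and 112 and 141 FPKM in vehicle (1.00 ± 0.11, adjusted p = 0.0023). The muscle form Pfkm differed by −0.84 ± 0.25 and was not called (adjusted p = 0.055). Of the phosphoglycerate mutases the brain form Pgam1 rose by 0.50 ± 0.09, while the muscle form Pgam2 fell to 59.4 and 38.0 FPKM with ET-1, against 112 and 121 FPKM in vehicle (−1.28 ± 0.24, adjusted p = 0.011). Aldoc, an aldolase, fell to 42.9 and 18.0 FPKM with ET-1, against 111 and 78.9 FPKM in vehicle (−1.73 ± 0.36, adjusted p = 0.016, range 0.021 to 0.12). Pfkp was called in every fit with a library left out, where 3, 1, 8 and 2 members were called, and Slc16a3 alone without the replicate term.

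Respiratory chain genes are encoded in the nucleus and in the mitochondrial genome. Of 41 nuclear genes 3 rose and 1 fell (7.32% and 2.44%, against 8.89% and 9.5% of all genes), with a median of 0.07 that was −0.03 on the values as deposited. Cox7a1, the heart and muscle form of a cytochrome oxidase subunit, stood at 5.52 and 3.95 FPKM with ET-1 and 2.74 and 1.31 FPKM in vehicle (1.09 ± 0.15, adjusted p = 0.0040), and Cox8b, another, fell by 0.60 ± 0.13. Of the 13 protein genes of the mitochondrial genome 8 fell and 0 rose (61.5% and 0%, against 9.5% and 8.89% of all genes; median −0.36). Their sum was 7932 and 12030 FPKM with ET-1 and 10520 and 13320 FPKM in vehicle, so the groups overlapped and ET-1 was lower within each replicate. Mt-atp6, an ATP synthase subunit, stood at 175 and 249 FPKM with ET-1 and 278 and 352 FPKM in vehicle (−0.58 ± 0.08, adjusted p = 0.0048). No mitochondrially encoded gene was called without the replicate term (adjusted p = 0.27 to 0.75 for the 8), and 2, 3, 4 and 2 were called with a library left out. For the nuclear genes these counts were 2, 1, 2 and 1.

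Channel genes that shape the cardiac action potential fell or were not called. Of 18 potassium, sodium and pacemaker channel genes 7 fell and 0 rose (38.9% and 0%, against 9.5% and 8.89% of all genes; median −0.49). Kcnip2, the partner of the channels of the transient outward current, stood at 1.06 and 1.79 FPKM with ET-1 and 3.88 and 12.3 FPKM in vehicle (−1.99 ± 0.34, adjusted p = 0.0087), with vehicle replicate 2 above the other 3 libraries. Kcnj3, a subunit of the channel opened by acetylcholine, stood at 3.60 and 7.43 FPKM with ET-1 and 8.91 and 18.2 FPKM in vehicle (−1.22 ± 0.13, adjusted p = 0.0017). Abcc9, a subunit of the ATP-sensitive potassium channel, stood at 7.66 and 9.05 FPKM with ET-1 and 15.4 and 15.8 FPKM in vehicle (−0.86 ± 0.11, adjusted p = 0.0031). Kcnj3 and Abcc9 were called in every fit with a library left out, where 3, 3, 6 and 4 members were called, and Abcc9 alone without the replicate term. Kcnj12 (−0.98 ± 0.26) and Scn4b (−0.72 ± 0.20) also fell, and the pacemaker channel gene Hcn4 differed by −0.49 ± 0.15 (adjusted p = 0.054).

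Most calcium handling genes were not called. Of 25 members 4 rose and 2 fell (16% and 8%, against 8.89% and 9.5% of all genes), with a median of −0.19. Atp2a2, the SERCA2 pump that refills the sarcoplasmic reticulum, stood at 690.1 and 751 FPKM with ET-1 and 878 and 1296 FPKM in vehicle (−0.57 ± 0.16, adjusted p = 0.042). S100a1, which enhances that pump, stood at 40.7 and 55.1 FPKM with ET-1 and 61.8 and 102 FPKM in vehicle (−0.74 ± 0.16, adjusted p = 0.021). The exchanger Slc8a1, which exports calcium, stood at 589 and 641 FPKM with ET-1 and 443 and 498 FPKM in vehicle (0.39 ± 0.08, adjusted p = 0.019). In all 3 the groups did not overlap. The buffers Casq1 (1.45 ± 0.37) and Casq2 (0.55 ± 0.13) also rose, and Ryr2 (−0.28), Pln (−0.65) and Cacna1c (−0.19) were not called. None of the 6 was called without the replicate term (adjusted p = 0.089 to 0.31), and 0, 0, 6 and 1 members with a library left out, so these calls rested on the pairing and on the libraries other than vehicle replicate 1.

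Among 32 secreted growth factors and cytokines 8 rose and 8 fell (25% and 25%, against 8.89% and 9.5% of all genes; median −0.05). The EGF receptor ligands Areg, at 4.37 and 6.87 FPKM with ET-1 and 0.919 and 1.93 FPKM in vehicle (1.69 ± 0.14, adjusted p = 0.0011), and Hbegf, at 20.5 and 37.5 FPKM with ET-1 and 7.57 and 11.9 FPKM in vehicle (1.498 ± 0.14, adjusted p = 0.0013), rose most. Members of the TGF-beta family followed, with Bmp10, a cardiac factor, at 25.4 and 65.8 FPKM with ET-1 and 10.3 and 25.8 FPKM in vehicle (1.296 ± 0.19), Tgfb2 (1.26 ± 0.26), Inhba (1.02 ± 0.19) and Tgfb3 (0.96 ± 0.26). Areg and Hbegf did not overlap between groups, whereas Bmp10 did, since replicate 2 was higher in both groups. Genes of the insulin-like growth factor system fell: Igfbp3 stood at 5.66 and 1.93 FPKM with ET-1 and 21.5 and 4.93 FPKM in vehicle (−1.498 ± 0.17, adjusted p = 0.0021), Igfbp5 at 1.85 and 1.05 FPKM with ET-1 and 6.41 and 3.22 FPKM in vehicle (−1.41 ± 0.21, adjusted p = 0.0055), and Igf2 fell by 0.78 ± 0.11. Fgf7 (−1.21 ± 0.17) and Fgf1 (−1.17 ± 0.31) fell as well. Igfbp3 was higher in replicate 1 of both groups, as the fibroblast markers were, and the part of those cells in its fall was not tested. Igf2 and Fgf7 were called without the replicate term, and 7, 6, 15 and 7 members with a library left out. Of 10 semaphorin pathway genes Sema3c rose and Sema3d (−0.56 ± 0.11) and Sema3f (−0.51 ± 0.11) fell (10% and 20%, against 8.89% and 9.5% of all genes). Sema3c alone of these was called without the replicate term.

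Matrix genes were called in both directions. Of 35 collagens and matrix proteins 5 rose and 14 fell (14.3% and 40%, against 8.89% and 9.5% of all genes; median −0.21), and of 11 tested fibroblast markers, 6 of which are on both lists, 7 fell and 0 rose (63.6% and 0%, against 9.5% and 8.89% of all genes; median −0.53). Eln, elastin, stood at 70.7 and 34.4 FPKM with ET-1 and 159 and 77.8 FPKM in vehicle (−1.16 ± 0.09, adjusted p = 0.00090), and its groups did not overlap. Col3a1, a fibrillar collagen, stood at 382 and 91.1 FPKM with ET-1 and 621 and 143 FPKM in vehicle (−0.67 ± 0.10, adjusted p = 0.0053), and Postn, periostin of fibroblasts, at 191 and 36.0 FPKM with ET-1 and 309 and 57.3 FPKM in vehicle (−0.68 ± 0.14, adjusted p = 0.017). These groups overlapped, with replicate 1 far above replicate 2 in each and ET-1 lower within each replicate. Genes that rose included Thbs1, at 92.8 and 113 FPKM with ET-1 and 50.0 and 29.5 FPKM in vehicle (1.404 ± 0.35, adjusted p = 0.031), and the basement membrane chain Col4a2 (0.70 ± 0.18). Without the replicate term no matrix gene was called (adjusted p = 0.075 to 0.91 for the 19), and 5, 6, 17 and 2 members with a library left out; for the fibroblast markers the counts were 1, 2, 5 and 1. Of 18 matrix proteases and inhibitors 3 rose and 4 fell (16.7% and 22.2%, against 8.89% and 9.5% of all genes). Timp1, a metalloprotease inhibitor, stood at 30.9 and 32.7 FPKM with ET-1 and 14.2 and 9.85 FPKM in vehicle (1.39 ± 0.16, adjusted p = 0.0026) and was called without the replicate term and in every fit with a library left out, while Mmp2 (−0.53 ± 0.14) and Adamts5 (−0.82 ± 0.08) fell, with 2, 2, 5 and 2 called with a library left out. The part of fewer fibroblasts or less RNA per fibroblast in the falls was not tested.

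Cell death genes showed single large changes. Of 18 members 5 rose and 3 fell (27.8% and 16.7%, against 8.89% and 9.5% of all genes; median 0.06, and −0.03 on the values as deposited). Bcl2l11, which encodes the pro-death protein Bim, fell to 4.62 and 4.60 FPKM with ET-1, against 17.1 and 24.7 FPKM in vehicle (−2.04 ± 0.22, adjusted p = 0.0021). Bmf, of the same BH3-only class, fell by 0.61 ± 0.11. The survival genes Bcl2, at 13.0 and 15.7 FPKM with ET-1 and 8.68 and 10.2 FPKM in vehicle (0.58 ± 0.10, adjusted p = 0.0089), and Bcl2l1 (0.47 ± 0.07) rose, but so did the pro-death genes Bok (1.22 ± 0.20) and Bak1 (0.50 ± 0.11). Tnfrsf12a, the receptor of the cytokine TWEAK, stood at 177 and 249 FPKM with ET-1 and 43.5 and 73.3 FPKM in vehicle (1.88 ± 0.15, adjusted p = 0.00090). In the genes given by library the groups did not overlap. Bcl2l11, Bmf, Bcl2l1 and Bok were called without the replicate term, and 6, 4, 7 and 5 members with a library left out.

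Of 19 mitosis genes Anln rose (0.52 ± 0.10) and Top2a fell (−0.31 ± 0.09), with Mki67 at −0.26 and Ccnb1 at −0.13 not called (median −0.13; 1, 0, 3 and 0 called with a library left out). For the mitosis list the shares that rose and fell were 5.26% each, against 8.89% and 9.5% of all genes. Differences were negative for 17 mitosis genes and positive for 2. An unadjusted limma p under 0.05 was held by 4 of the 19, against 4915 of all 13793 genes. Of 27 genes of replication and the step into S phase 4 rose and 3 fell (14.8% and 11.1%, against 8.89% and 9.5% of all genes), with a median of 0.28. Cdc6, which licenses origins, stood at 8.31 and 9.02 FPKM with ET-1 and 5.81 and 4.99 FPKM in vehicle (0.64 ± 0.18, adjusted p = 0.044), and Cdkn1b, the cell cycle inhibitor p27, at 24.7 and 25.5 FPKM with ET-1 and 33.6 and 41.0 FPKM in vehicle (−0.56 ± 0.09, adjusted p = 0.0073). Both had groups that did not overlap. The cyclin Ccnd1 (0.57 ± 0.14), the polymerase clamp Pcna (0.37 ± 0.08) and the kinase Cdk6 (0.36 ± 0.08) rose too, while Cdk4 (−0.25 ± 0.07) and the inhibitor Cdkn1c (−0.69 ± 0.15) fell. In all 22 of the 27 differences were positive. An unadjusted p under 0.05 was found for 17 members, against 4915 of all 13793 genes. Cdkn1b alone was called without the replicate term, and 2, 0, 4 and 3 members with a library left out.

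The genes of the study's title showed small differences. Of 24 genes of P-TEFb, the 7SK complex, the super elongation complex and the BET family 0 rose and 6 fell (0% and 25%, against 8.89% and 9.5% of all genes; median −0.15). Cdk9, the kinase of P-TEFb, stood at 15.4 and 13.3 FPKM with ET-1 and 16.4 and 16.1 FPKM in vehicle (−0.17 ± 0.07, adjusted p = 0.11) and was not called. Hexim1, which inhibits P-TEFb within the 7SK complex, stood at 20.3 and 17.0 FPKM with ET-1 and 23.6 and 27.6 FPKM in vehicle (−0.45 ± 0.12, adjusted p = 0.043, 0.13 without the replicate term). Both genes were lower in both ET-1 libraries than in both vehicle libraries. Mepce (−0.38 ± 0.11), which caps 7SK RNA, Brd3 (−0.39 ± 0.11), Ell (−0.34 ± 0.07), Mllt1 (−0.32 ± 0.08) and Mllt3 (−0.45 ± 0.11) fell too. Without the replicate term none of the 6 was called (adjusted p = 0.067 to 0.23), and 1, 0, 6 and 0 members with a library left out. Of 20 cardiac transcription factor genes Meis1 alone was called, as a fall (5%, against 9.5% of all genes). It differed by −0.41 ± 0.08 (adjusted p = 0.014, 0.091 without the replicate term). Gata4 (0.29), Mef2c (0.27), Nkx2-5 (−0.11) and Tbx5 (−0.37) were not called.

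**Figure D5:**
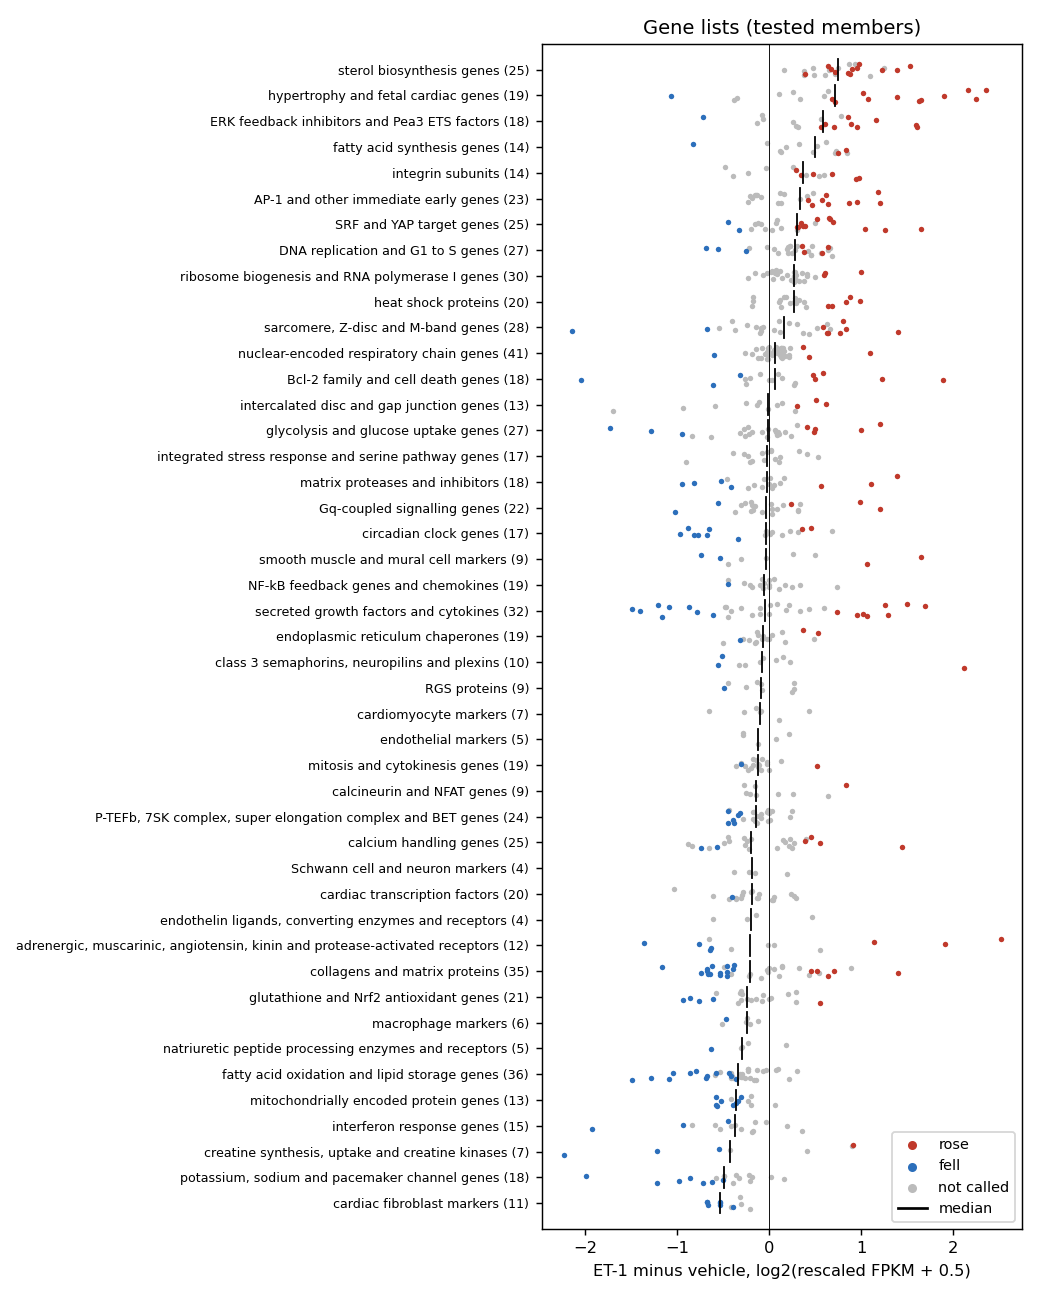
ET-1 minus vehicle in log2(rescaled FPKM + 0.5) for the tested members of each gene list, with the number tested in parentheses, red for members that rose, blue for those that fell, grey for those not called and a black bar at the median. Sterol synthesis has the highest median (0.75) and fibroblast markers the lowest (−0.53), with most lists spread on both sides of 0.

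The response was also set against that to PE, an alpha-1 adrenergic agonist given at 10 µM, by a direct test of the PE libraries against the ET-1 libraries. Of the 2537 genes changed by ET-1, 0 differed by limma, with or without the replicate term, and 198 had an unadjusted p under 0.05. The same ET-1 libraries chose these genes, which by itself can raise that count, and the count over all genes is not given. The median absolute difference was 0.08 with a median SE of 0.10, and 2 genes differed by 2-fold or more, Gnas and AABR07009508.1, a gene with no symbol of its own that is named here after its values were seen. A missed threshold does not show that both agonists act alike. Of all 13793 genes 1 passed (AABR07034673.1, 0.00725%), named for the same reason. The widest gaps among the genes named for size were a PE minus ET-1 difference of −1.17 ± 0.33 for Gnas, 0.95 ± 0.33 for Mb, 0.86 ± 0.20 for Wfdc1 and 0.77 ± 0.25 for Bdkrb2.

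Under JQ1 at 1 µM the ET-1 libraries were compared with their own vehicle libraries, which share none of the 4 above. There 1601 genes were called (11.6%), and of the 2537 genes 921 were called in the same direction and 7 in the other, with the same sign in 2400. Both comparisons took the spread of each gene from the same fit, so a low spread favours calls in both. These counts are thus a description, and the share of genes with the same sign over all genes is not given. Nppb differed by 1.91, Fhl1 by 2.62, Acta1 by 2.14 and Sema3c by 1.79 under JQ1, and Wfdc1 by 0.14, of which Wfdc1 was not called. Wfdc1 was near 0 under JQ1, at 0.094 and 0.061 FPKM with ET-1 and 0 and 0.050 FPKM in vehicle. With a pseudocount of 0.5, a difference at such levels can hardly show. The difference between the effects passed for 3 of the 2537 genes (Myh3, Cdca8 and Sct), and for 5 of all 13793 (0.0363%, with Ube2t and Fbxo5, named after their values were seen). It passed for 0 of the 2537 without the replicate term, while 646 had an unadjusted p under 0.05 and the median SE was 0.14. The libraries without JQ1 that chose the 2537 genes also enter this test, which by itself can raise that count. The count over all genes is not given, so the 646 is a description only.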

How the data were processed

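Total RNA was sequenced after ribosomal RNA depletion with a stranded kit, per the labels. Per the submitters' processing notes, the authors used StringTie 1.3.4d, Trim Galore 0.6.0, DESeq2 1.24.0 and STAR 2.7.1a with the rat build rn6 (Rnor_6.0), in roles and order that the notes as held here do not give. The deposited tables hold, per transcript, mean coverage (a signal per base) and FPKM, which the authors' quantification had scaled for length and library total, per the file headers. Each table lists 41078 transcripts of 32883 genes. No strand setting was found in the labels or headers, so overlapping genes, antisense pairs and near-identical copies are uncertain, and a value of 0 may be a failed estimate.

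Values were summed over the transcripts of a gene, and each library was divided by a median-of-ratios factor (0.873 to 1.127) taken over the 15551 genes that no library lists at 0. A gene was tested where 2 or more libraries reached 1 rescaled FPKM, which 13793 did. Limma 3.58.1 (R 4.3.3; moderation trended and robust) was fitted to log2(FPKM + 0.5) of all 12 libraries as 6 group means plus the replicate number, leaving 5 residual degrees of freedom, with Benjamini-Hochberg adjustment and a threshold of 0.05. Tables and figures used Python 3.11.15.

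The replicate number pairs libraries here because same-numbered libraries deviated together: for the 15 pairs of groups, the correlation of these deviations lay between 0.16 and 0.67. What a number stands for is not in the labels. A permutation of 2 libraries against 2 cannot give a two-sided p below 0.33.

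Depth is total coverage, 2.446 to 2.965 Gb in the 4 compared libraries. It is not a count of fragments, so no counting interval is given.

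Genes were named by rule: the 12 largest rises and the 12 largest falls among called genes with the same sign in both pairs, a mean of at least 5 FPKM in the higher group, a transcript of at least 400 nt and a symbol; up to 6 of the most changed called members per list; the 5 called genes of highest mean level; and 15 genes fixed by name. Members of lists that were not called are given as examples chosen after their values were seen. The comparison and all lists were chosen with earlier results of these data known. List members under the filter or without a row were not tested, and some members that were tested are counted but not reported here by name. Promoter sequences are RefSeq's on GRCr8, 250 bases before each start, matched by symbol. Alternatives were a fit with no replicate term, fits of fewer libraries, 3 other scalings, 2 other pseudocounts, 2 other filters and each library left out.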

Additional observations from a re-analysis of the deposited data

Results flagged for a closer look

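For 3 of the 2537 genes changed by ET-1, the effect of ET-1 under JQ1 differed from that without JQ1 by an interaction test in limma with the replicate term. None of the 3 passed that test without the term.

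Myh3, the embryonic myosin heavy chain, stood under JQ1 at 6.02 and 12.3 FPKM with ET-1 and 0.0927 and 0.209 FPKM in vehicle, and without JQ1 at 7.35 and 10.2 FPKM with ET-1 and 4.78 and 6.28 FPKM in vehicle. The effect under JQ1 minus that without it was 3.20 ± 0.24 on the log2 scale (adjusted p = 0.014). Vehicle cells under JQ1 were the low group.

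Cdca8, a mitotic gene of the chromosomal passenger complex, stood under JQ1 at 7.76 and 8.78 FPKM with ET-1 and 13.3 and 14.3 FPKM in vehicle, and without JQ1 at 29.2 and 30.2 FPKM with ET-1 and 23.8 and 25.8 FPKM in vehicle. The difference of the effects was −0.97 ± 0.08 (adjusted p = 0.026), and ET-1 libraries were lower than vehicle under JQ1 and higher without it.

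Sct, the secretin gene, was listed at 0 with ET-1, both under JQ1 and without it, and at 0 in vehicle under JQ1, against 1.39 and 1.63 FPKM in vehicle without JQ1. The fitted difference of 2.0 (adjusted p = 0.038) depends on the pseudocount and is no bound.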

How the results depend on the processing

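Against 1226 rises and 1311 falls (2537 in all) with the replicate block, the fit without the block gave 180 and 216 (396), and 0 genes whose effect differed under JQ1 against 3. The block was in the main fit because the comparison was set to pair libraries by number, and libraries of 1 number deviated together, while the labels state no pairing. Fitting only the 4 compared libraries gave 831 rises and 815 falls (1646) with the block and 0 of either kind (0 in all) without it, where 2483 genes had an unadjusted p under 0.05. The values as deposited gave 841 rises and 2036 falls. With a library left out and the block, rises ranged from 339 to 1177, falls from 262 to 1216 and all calls from 626 to 2393. Without the block, an alternative added after seeing the data, these ranged from 0 to 15, 0 to 32 and 0 to 47, the highest without ET-1 replicate 1 and 0 without either vehicle library. Leaving out a library unbalances the replicate numbers between groups. The cause of these losses was not tested. Upper quartile scaling, bases in place of FPKM, both other pseudocounts, both other filters and the fit of the 6 libraries without JQ1 kept every count within 1.5 times. Among genes not called, Ednra turned positive on bases (0.10), and with a library left out Ednra ranged from −0.67 to 0.18 (0.07 without vehicle replicate 1), Ednrb from −0.31 to 0.01 and Myc from −0.31 to 0.50 (−0.20 without ET-1 replicate 1). The depth of each library is known only as coverage, and 2 libraries per group limit the precision of every difference.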

Other observations

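Several further lists were measured. Their counts of members with an unadjusted p under 0.05 stand against 4915 of all 13793 genes. Of 17 circadian genes 7 fell and 2 rose (41.2% and 11.8%, against 9.5% and 8.89% of all genes; median −0.04), and 5 of the falls were also called without the replicate term. Dbp, a PAR domain factor driven by the clock, stood at 7.63 and 5.78 FPKM with ET-1 and 12.5 and 12.9 FPKM in vehicle (−0.89 ± 0.10, adjusted p = 0.0025 by limma), and Tef, its relative, at 21.4 and 18.7 FPKM with ET-1 and 33.9 and 37.5 FPKM in vehicle (−0.82 ± 0.09, adjusted p = 0.0022). Per3 (−0.77 ± 0.16), Nr1d2 (−0.68 ± 0.11) and Bhlhe41 (−0.66 ± 0.10) fell, Per2 rose (0.45 ± 0.10), and the core genes Arntl (0.22), Clock (0.03) and Cry1 (−0.05) were not called. Groups lay apart for these called genes, and 4, 4, 7 and 3 members were called with a library left out. All libraries were taken at 24 h, and no other time was analysed here.

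Of 15 interferon response genes 3 fell and 0 rose (20% and 0%, against 9.5% and 8.89% of all genes; median −0.37; 1, 1, 3 and 2 called with a library left out, 0 without the replicate term, 7 with an unadjusted p under 0.05). Irf7, the regulator of interferon genes, stood at 3.23 and 1.399 FPKM with ET-1 and 11.8 and 7.78 FPKM in vehicle (−1.92 ± 0.25, adjusted p = 0.0035), and Ifi44 fell by 0.94 ± 0.17. Of 21 glutathione and Nrf2 genes 4 fell and 1 rose (19% and 4.76%, against 9.5% and 8.89% of all genes; median −0.25; 3, 1, 5 and 1 called with a library left out). Gsta4, a glutathione transferase, stood at 42.3 and 35.4 FPKM with ET-1 and 64.4 and 67.6 FPKM in vehicle (−0.76 ± 0.10, adjusted p = 0.0035) and was called in every such fit and without the replicate term. Of 20 heat shock genes 5 rose and 0 fell (25% and 0%, against 8.89% and 9.5% of all genes; median 0.27; 3, 1, 4 and 3 called with a library left out). Hspb1, a small chaperone of the actin skeleton, stood at 334 and 385 FPKM with ET-1 and 192 and 261 FPKM in vehicle (0.68 ± 0.11, adjusted p = 0.0070, 0.087 without the replicate term).

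Of 30 ribosome biogenesis genes Rrp12 (1.00 ± 0.28), Rrs1 (0.60 ± 0.14) and Polr1c (0.60 ± 0.13) rose and none fell (10% and 0%, against 8.89% and 9.5% of all genes; median 0.27; 0, 0, 6 and 0 called with a library left out, none without the replicate term, 9 with an unadjusted p under 0.05). Of 19 chaperones of the endoplasmic reticulum Sdf2l1 (0.53 ± 0.09) and Dnajb11 (0.37 ± 0.07) rose and Hyou1 fell (−0.32 ± 0.07), with 1, 1, 3 and 1 called with a library left out. Of 19 NF-kB feedback genes Nfkbia alone was called (−0.45 ± 0.11, adjusted p = 0.030, 0.25 without the replicate term, range with a library left out 0.053 to 0.18). The shares that rose and fell were 10.5% and 5.26% for the chaperones and 0% and 5.26% for the NF-kB genes. Those of all genes were 8.89% and 9.5%. Of 17 integrated stress response genes 0 were called by limma, with or without the replicate term, and 1 had an unadjusted p under 0.05.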
